A study of Mus musculus with 18 samples.

Results

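The comparison set binucleated against mononucleated heart muscle cells of the mouse shortly before birth, at E18.5. It covers 6 of the 18 libraries of the series, 3 of binucleated and 3 of mononucleated cells, chosen by the age and the number of nuclei in their labels, and all 12048 listed genes. Both classes came from Mlc2vcre:R26REYFP mice. In these mice Cre recombinase driven by Mlc2v (Myl2, the gene of the ventricular regulatory myosin light chain) turns on a yellow fluorescent reporter, so both classes carry the same driver and reporter alleles, and the reporter marks cells in which that promoter has been active. Flow sorting collected each class into lysis reagent. The sources used here do not give how the sorter told the number of nuclei. The other 12 libraries are the same classes at P7, a week after birth, and in the adult, and they enter here only through the shared estimate of spread and 1 comparison of ages. The labels name no separate animals behind the replicates, so the p-values measure the spread between these libraries, which may be technical.

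A heart muscle cell that passes through mitosis without completing cytokinesis keeps both nuclei in 1 cell body. Binucleation of this kind is known mainly from the first days after birth in mice, when most ventricular cells take their last round of DNA synthesis. Cyclins, kinesins and kinetochore proteins of G2 and M phase are made in a burst before division and are destroyed at its end, while replication genes peak earlier, at the G1/S boundary. Cytokinesis then depends on the contractile ring, the central spindle and the midbody. The heart also holds fibroblasts, endothelial cells, mural cells, epicardial cells and macrophages, each with well-known marker genes.

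The values are normalised counts, which are recovered whole read counts scaled to a common library size, and log2 fold changes are given as binucleated minus mononucleated. Library totals were 19951367 to 22690952 counts in the mononucleated class and 14833334, 21615112 and 22053711 in binucleated replicates 1, 2 and 3. Ventricular transcripts were abundant in every library. Sums over a gene list are given in CPM, the list's share of the recovered counts scaled to 1000000 for a library. The 21 listed ventricular cardiomyocyte markers took 63171 to 69623 CPM in the mononucleated libraries and 48610 to 63134 in the binucleated ones, and none of them was at 0 in any library. Binucleated replicate 1 lay apart from the other 5 libraries. Its correlation with the other binucleated libraries was 0.884 and 0.896, against 0.964 between those and 0.954 to 0.957 among mononucleated libraries. On the first principal component of the 6 libraries (44.3% of the variance) it was at -108 and the others at 13.8 to 31.0, and the second component (22.5%) held the other binucleated libraries at -55.4 and -38.8 and the mononucleated ones at 27.0 to 30.8. Values without this library therefore stand beside those of the gene lists and the called genes.

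Binucleated replicate 1 also differed from the rest by transcript length. Against the mean of the other 5 libraries its median log2 difference was 0.23 in the fifth of genes with the shortest transcripts (median 651 bases) and -0.54 in the fifth with the longest (median 3601 bases). The other 5 libraries stayed between -0.06 and 0.18 over all length groups. The 74 listed cytosolic ribosomal protein genes took 26361 CPM in this library and 10681 to 11704 in the others, and the 54 oxidative phosphorylation genes took 70624 against 44064 to 48015. What the length trend contributes to single class differences was not tested.

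**Figure D1:**
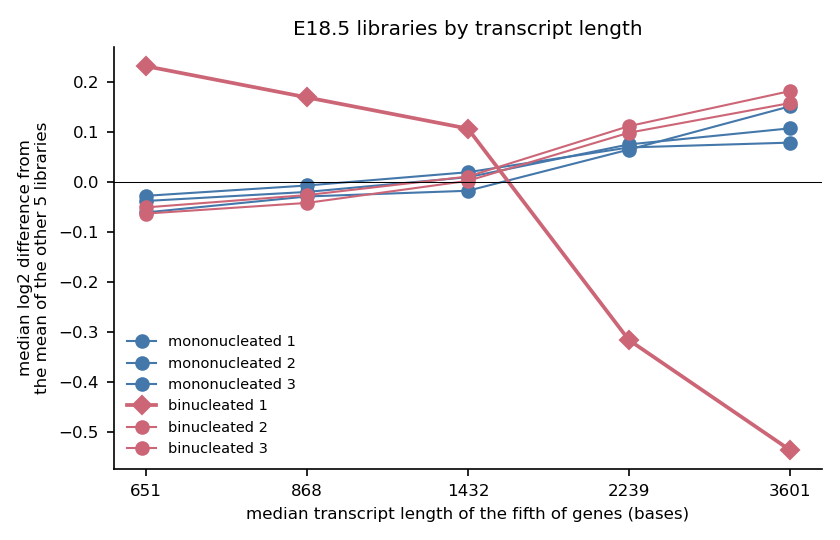
Median log2 difference of each E18.5 library from the mean of the other 5 (y axis) in 5 equal groups of genes by transcript length (x axis, median length in bases). Binucleated replicate 1 (diamonds) runs from 0.23 to -0.54. The other 5 lines run in the opposite order. The mean that each of those is set against includes binucleated replicate 1, which by itself tilts them that way.

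Of 12048 genes, 97 differed between the classes (limma adjusted p under 0.05, 0.805% of genes). Binucleated cells had the higher level for 89 of them (0.739%) and the lower level for 8 (0.0664%). Of the genes that were higher, 28 stood on lists of markers of other heart cell types (105 such markers listed). The list of G2/M and mitosis genes held 3 of them, and 52 stood on no list. The lists are not complete, so a gene on no list may still be a marker of another cell type. Many were scarce in mononucleated cells. For 12 of the 89 the mononucleated libraries held 0 counts in sum and for 5 they held 1 to 3, and 19 of the 89 belonged to the upper 75% of genes by mean level. Without binucleated replicate 1, 137 genes passed (1.14%), 117 higher (0.971%) and 20 lower (0.166%), and 75 of them were among the 97. Without binucleated replicate 2 the split was 65 higher and 34 lower, without binucleated replicate 3 it was 118 and 164, without mononucleated replicate 1 it was 74 and 5, and after quantile normalization it was 84 and 29, so the number of lower genes depends strongly on the setting. Fitted to the 6 E18.5 libraries alone, with 4 residual degrees of freedom, limma called 0 genes (567 had an unadjusted p under 0.05, 4.71%). With voom weights on the recovered counts of all 18 libraries 204 genes passed (1.69%). The calls thus draw on the spread measured in all 6 groups.

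**Figure D2:**
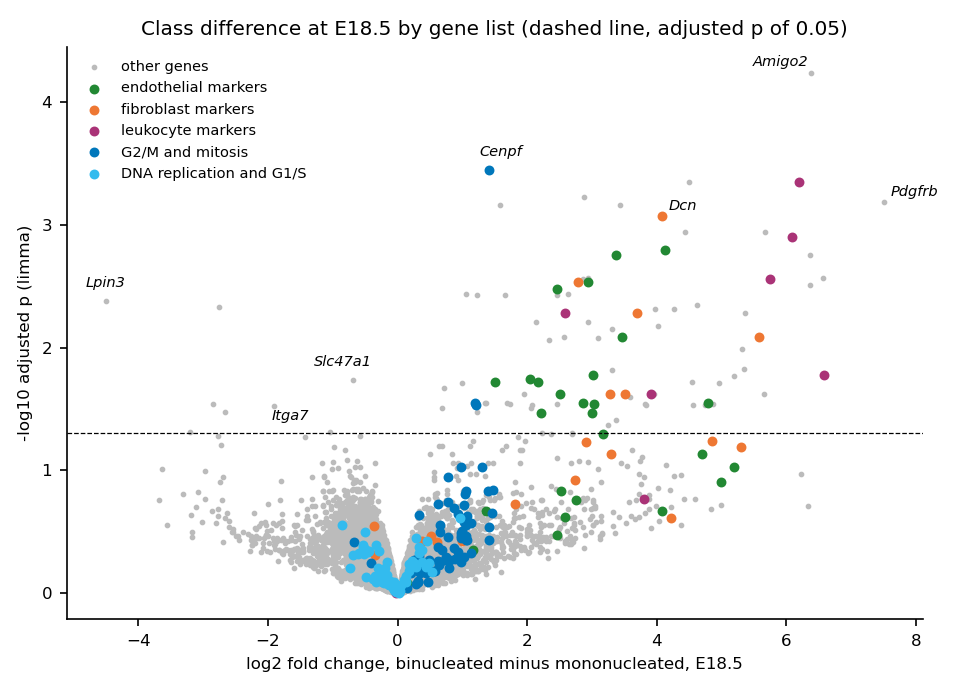
Class difference at E18.5 as log2 fold change (x axis, binucleated minus mononucleated) against -log10 of the limma adjusted p (y axis) for all 12048 genes, with 5 gene lists in colour. Of the 97 genes above the dashed line 89 lie to the right, and endothelial, fibroblast and leukocyte markers reach log2 fold changes above 4 while the G2/M genes gather between 0 and 1.5.

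Genes of G2 and mitosis mostly had higher values in the binucleated class, and few of them passed the test one by one. Of 72 listed G2/M and mitosis genes, 70 had a log2 fold change above 0 (49.4% of all genes did), and the median was 0.81, against -0.01 over all genes. In 42 of the 72 every binucleated library was above every mononucleated library, a pattern that 6.91% of all genes showed. An unadjusted p under 0.05 with a higher level was reached by 32 (5.88% of all genes). After adjustment 3 passed, Cenpf, Cenpa and Sgo2a (0.739% of all genes were called higher). With voom weights 34 of the 72 passed, all higher (1.63% of all genes). The list as a whole took 3211, 3919 and 4458 CPM in mononucleated replicates 1, 2 and 3, and 6728, 7066 and 7188 in the binucleated ones, so the classes did not overlap and binucleated replicate 1 was close to its group. Without that library the median was 0.84 and 70 of 72 stayed above 0 (46.8% of all genes). Of the 72, 63 then had classes that did not overlap (13.6% of all genes) and 6 passed, all higher (0.971% of all genes). The count that passed was 1 without mononucleated replicate 1 or 2 and 2 without binucleated replicate 2.

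Cenpf (ENSMUSG00000026605), which encodes a large kinetochore and nuclear envelope protein of late G2, had normalised counts of 1164, 1226 and 1525 in mononucleated replicates 1, 2 and 3 and 3631, 3231 and 3519 in the binucleated ones. The classes were far apart and each was tight. The level was 2.67-fold higher (1.42 ± 0.15 SE on the log2 scale with 3 libraries a class; limma adjusted p = 0.000359), and 2.60-fold higher without binucleated replicate 1. Cenpa (ENSMUSG00000029177), the histone H3 variant that marks centromeres, had 1788, 2219 and 2478 against 8883, 3693 and 3774. Its classes did not overlap either, but binucleated replicate 1 was more than the others of its class by a wide margin, and the fold was 2.33 with it (1.22 ± 0.25 SE on the log2 scale, limma adjusted p = 0.0296) and 1.74 without it (limma adjusted p = 0.0163). Sgo2a (ENSMUSG00000026039), a shugoshin that protects cohesin at centromeres, had 218, 220.2 and 342 against 589.8, 551 and 604. Mononucleated replicate 3 was the highest of its class and still below every binucleated library (2.28-fold, 1.19 ± 0.25 SE on the log2 scale, limma adjusted p = 0.0284 with all libraries and 0.0476 at 2.27-fold without binucleated replicate 1). The Cenpf call held with each E18.5 library left out in turn. That of Cenpa was lost without mononucleated replicate 1 or 2 (limma adjusted p = 0.144 and 0.0757), and that of Sgo2a without mononucleated replicate 1 or 2 or binucleated replicate 2 (0.127, 0.108 and 0.0555).

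Further cell cycle genes, regulators of mitotic entry among them, had a higher binucleated mean without passing the test. Ccnb1, the cyclin B1 gene whose product activates Cdk1 at the onset of mitosis, had the largest fold change of the list, with 2153, 2453 and 3309 in mononucleated and 6751, 7317 and 7564 in binucleated libraries. The gap between the classes was 2.78-fold, yet the test across all groups gave a limma adjusted p of 0.145. Ccna2, the cyclin A2 gene, had 2727, 3533 and 4229.9 against 6085, 6719.5 and 6923 (limma adjusted p = 0.226). Aurka, a centrosomal kinase, had 641, 758 and 1144 against 1966, 1719 and 1468 (limma adjusted p = 0.345). For both genes every binucleated value was above every mononucleated one. Cdk1 itself had 1183, 1600.0 and 1811 against 3340.2, 2339.8 and 2105, with the highest mononucleated library not far below the lowest binucleated one (limma adjusted p = 0.506). Mki67, the gene of the proliferation antigen Ki-67, had 1230.2, 1239 and 1649 against 1799.8, 2219.8 and 2643 (limma adjusted p = 0.447). Top2a, the topoisomerase that untangles sister chromatids, overlapped between the classes, with 2225, 3062 and 3801 against 2766, 4224 and 4397 (limma adjusted p = 0.495). Mononucleated replicate 1 was the lowest of the 6 libraries for each of the genes Ccnb1, Ccna2, Aurka, Cdk1, Mki67 and Top2a. With binucleated replicate 1 left out, their log2 fold changes were 1.52, 0.99, 0.95, 0.56, 0.83 and 0.54, and none passed.

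Without binucleated replicate 1, 3 further G2/M genes passed. Tpx2, a spindle assembly factor that activates Aurora A, had 973, 1135 and 1353 against 1629, 2691 and 2658, and its fold went from 1.98 (limma adjusted p = 0.0932) to 2.34 (limma adjusted p = 0.0189). Kif18a, a kinesin that aligns chromosomes, had 161, 227 and 195 against 212, 563 and 458, and binucleated replicate 1 lay among the mononucleated values (limma adjusted p = 0.243 with it and 0.032 without). Ckap5, a microtubule polymerase of the spindle, had 2848, 3661 and 3469 against 2482, 5237 and 4798, with replicate 1 as the lowest library (limma adjusted p = 0.539 and 0.0356). Kif18a and Ckap5 are named after their values were seen.

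**Figure D3:**
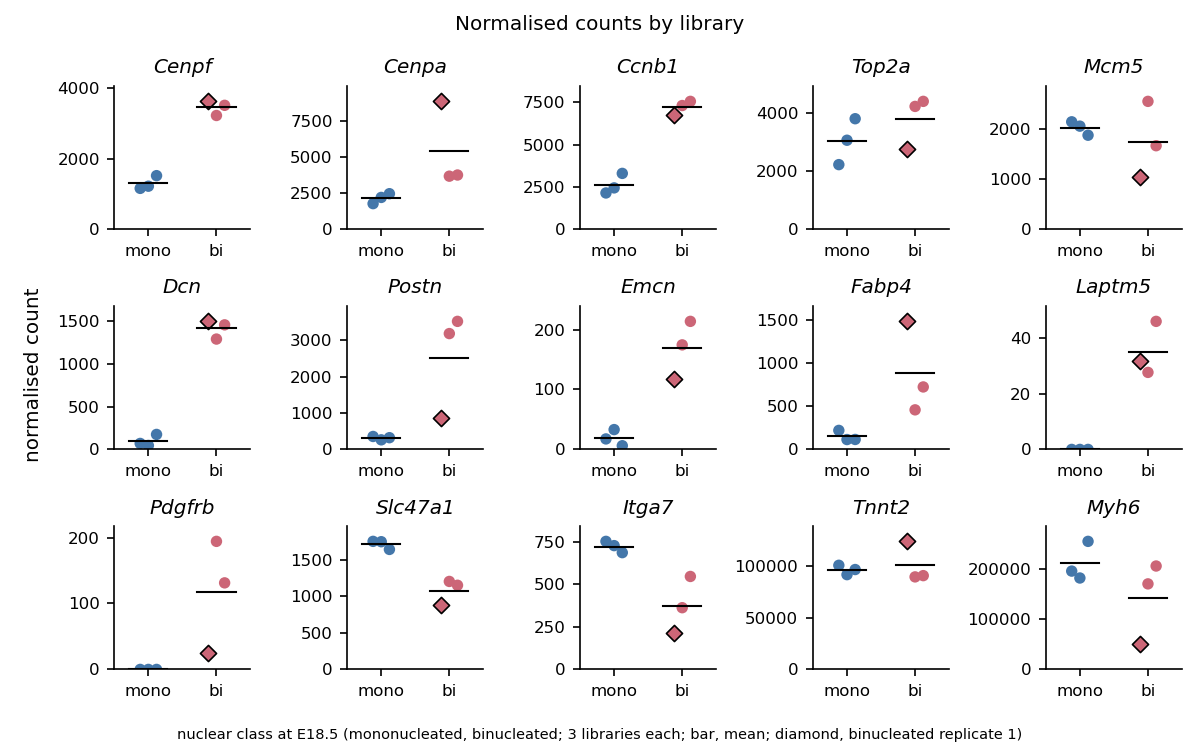
Normalised counts (y axis, linear and from 0) of 15 genes in each E18.5 library by nuclear class (x axis), with the class mean as a bar and binucleated replicate 1 as a diamond. Cenpf, Cenpa, Ccnb1 and the markers Dcn, Postn, Emcn, Fabp4, Laptm5 and Pdgfrb have all 3 binucleated libraries above the mononucleated ones, Slc47a1 and Itga7 have them below, and Mcm5 and Tnnt2 overlap.

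Promoters of G2/M genes are known for CCAAT boxes, bound by NF-Y, and for cell cycle homology regions (CHR), bound by the DREAM and MuvB complexes. Letters for these elements were searched on both strands of the 250 bases before each start in RefSeq (GRCm38.p6), where 9376 of the 12048 genes had a window and any of a gene's windows could hold the letters. CCAAT stood in 65.6% of the 61 G2/M genes with a window and in 40.9% of all genes. A CHR, spelled TTTGAA or TTCGAA, stood in 44.3% and 14.5%, and both elements in 34.4% and 5.63%. Of 47 G1/S genes with a window 59.6% held CCAAT and 19.1% a CHR. E2F letters (TTTCGCGC, TTTGGCGC or TTTCCCGC) stood in 23.4% of the G1/S genes, in 9.84% of the G2/M genes and in 3.49% of all genes. Each motif was searched separately, and some of these spellings can share a base, so neighbouring letters can count for both elements. A match is a description of letters only. The windows of Cenpf, Cenpa and Sgo2a are shown because these are the called genes of the list, and that of Ccnb1 because its fold change is the largest; Sgo2a has 2 starts in the table. Capitals mark CCAAT or its reverse complement ATTGG, and each sequence reads 5′ to 3′ on the gene's strand. Cenpf, Cenpa and Ccnb1 hold CCAAT letters at 2 places each, the first Sgo2a window at 1 and the second at 0. None of these windows holds TTTGAA or TTCGAA on either strand. Other spellings of a CHR and bases after the start were not searched, so a CHR may have been missed.
Cenpf promoter, chr1:189688087-189688336, minus strand: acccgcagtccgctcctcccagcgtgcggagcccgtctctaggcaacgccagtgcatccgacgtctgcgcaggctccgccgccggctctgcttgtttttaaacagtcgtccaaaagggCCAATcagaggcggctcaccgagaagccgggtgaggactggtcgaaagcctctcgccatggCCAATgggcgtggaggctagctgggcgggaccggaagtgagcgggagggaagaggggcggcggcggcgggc
Cenpa promoter, chr5:30666636-30666885, plus strand: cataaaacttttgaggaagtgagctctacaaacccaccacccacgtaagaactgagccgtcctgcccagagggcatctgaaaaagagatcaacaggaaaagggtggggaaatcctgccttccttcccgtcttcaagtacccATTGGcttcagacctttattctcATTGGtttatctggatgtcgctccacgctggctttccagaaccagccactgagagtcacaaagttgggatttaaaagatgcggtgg
Sgo2a promoter, first window, chr1:57985090-57985339, plus strand: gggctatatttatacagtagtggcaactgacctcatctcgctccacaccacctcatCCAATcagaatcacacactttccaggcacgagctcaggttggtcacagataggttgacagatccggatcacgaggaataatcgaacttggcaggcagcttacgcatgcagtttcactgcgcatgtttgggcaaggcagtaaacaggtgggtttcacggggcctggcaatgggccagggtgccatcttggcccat
Sgo2a promoter, second window, chr1:57995724-57995973, plus strand: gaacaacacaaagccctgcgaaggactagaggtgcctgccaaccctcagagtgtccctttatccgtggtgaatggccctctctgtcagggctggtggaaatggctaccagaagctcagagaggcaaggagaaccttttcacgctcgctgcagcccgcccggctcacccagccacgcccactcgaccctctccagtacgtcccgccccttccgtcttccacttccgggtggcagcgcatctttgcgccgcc
Ccnb1 promoter, chr13:100786487-100786736, minus strand: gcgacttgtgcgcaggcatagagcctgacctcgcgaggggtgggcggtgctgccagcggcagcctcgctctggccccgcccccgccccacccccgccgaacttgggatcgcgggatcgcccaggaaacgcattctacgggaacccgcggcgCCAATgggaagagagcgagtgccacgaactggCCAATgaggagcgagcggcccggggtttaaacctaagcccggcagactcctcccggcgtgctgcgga

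Genes of DNA replication lay around 0. Of 58 listed replication and G1/S genes limma called 0 (2 had an unadjusted p under 0.05 with a higher and 2 with a lower level, against 5.88% and 8.05% of all genes, and voom weights called 1, higher), 22 had a log2 fold change above 0, and the median was -0.11. Classes did not overlap in 6 genes that were higher in binucleated libraries and in 4 that were lower, against 6.91% and 7.1% of all genes. With binucleated replicate 1 left out the median was -0.02, and the classes did not overlap in 12 higher and 5 lower genes, against 13.6% and 15.3% of all genes. The list took 3682 to 3973 CPM in mononucleated libraries and 3088, 4209 and 3843 in binucleated replicates 1, 2 and 3, and the class ranges overlapped. Mcm5, a subunit of the replicative helicase, had 2144, 2058 and 1877 against 1035, 2552 and 1668, with binucleated libraries both lowest and highest (limma adjusted p = 0.623). Its fellow subunit gene Mcm4 had the lowest fold change of the list, with 2163, 2284 and 1955 against 587, 1869 and 1479, and the largest part of that gap was replicate 1 (log2 fold change -0.86, and -0.36 without it, limma adjusted p = 0.277 and 0.666). Pcna, the sliding clamp of DNA polymerase, had 2195, 2509 and 2017 against 3289, 2513 and 1961, which overlapped fully (limma adjusted p = 0.664). At the other end of the list was Dbf4, the activating subunit of the Cdc7 kinase, with 424, 571 and 540.4 against 1056, 1002 and 927 and no overlap (limma adjusted p = 0.243). The difference between the 2 lists was not tested as such.

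Cytokinesis genes lay between those lists. None of 37 passed the limma test, a count of 0. An unadjusted p under 0.05 was reached by 1 with a higher and 2 with a lower level (5.88% and 8.05% of all genes). Voom weights called 6, all higher (1.63% of all genes). The median log2 fold change was 0.26, 29 of 37 were above 0, and classes did not overlap in 11 that were higher and 2 that were lower (49.4%, 6.91% and 7.1% of all genes). The median was 0.34 without binucleated replicate 1, with 26 above 0 and classes apart in 20 higher and 3 lower genes (46.8%, 13.6% and 15.3% of all genes). Leaving out binucleated replicate 3 gave 1 call, lower, in a fit that called 164 of all 12048 genes lower. Birc5, survivin of the chromosomal passenger complex, had 1155, 1625 and 1771 against 6118, 2838 and 2929, the largest difference of this list (1.31 ± 0.50 SE on the log2 scale, limma adjusted p = 0.285). Aurkb, the kinase of the same complex, had 433, 511 and 463 against 751, 821 and 706 (limma adjusted p = 0.518). Kif23, a motor of centralspindlin, had 575, 884 and 967 against 1282, 1646 and 2016 (limma adjusted p = 0.478). In these 3 genes the classes did not overlap. Its partner Racgap1 had 2174, 2695 and 2838 against 2685, 4767 and 5053 (limma adjusted p = 0.525). Ect2, the exchange factor that activates RhoA at the furrow, had 952, 1373 and 1478 against 1236, 2418 and 2821 (limma adjusted p = 0.545). In Racgap1 and Ect2 binucleated replicate 1 lay within the mononucleated range and replicates 2 and 3 above it. Anln, the ring scaffold anillin, had 1502, 2085 and 3055 against 1678, 4637 and 4267 in the same arrangement (limma adjusted p = 0.452), and so did the spindle midzone bundler Prc1, with 2013, 2520.1 and 3107 against 2899.6, 4818 and 4535 (limma adjusted p = 0.526).

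Among 35 cell cycle regulators limma called 0, and their median was -0.01 (0.07 without binucleated replicate 1, with 0 called). Of them 4 with a higher and 5 with a lower level had an unadjusted p under 0.05 (5.88% and 8.05% of all genes). Voom weights called 1 in each direction (196 higher and 8 lower of all 12048 genes). E2f1, a transcription factor of the G1/S transition, had 1149, 1286 and 1263 against 446, 569 and 999, lower in all 3 binucleated libraries (limma adjusted p = 0.234). Ccnd1, the G1 cyclin D1 gene, had 53.5, 28.7 and 72.9 against 103, 118 and 173, and the CDK inhibitor gene Cdkn1c had 771, 877 and 722 against 1239, 1326 and 1199. Both had higher values in every binucleated library without passing (limma adjusted p = 0.244 and 0.237). Limma called 0 of 25 centrosome and 0 of 27 nuclear envelope genes, and voom weights called 0 in both. Of these 2 lists 2 and 1 genes had an unadjusted p under 0.05 (13.9% of all genes). Their medians were 0.08 and -0.01, and 0.24 and 0.10 without binucleated replicate 1, again with 0 called.

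Markers of endothelial cells were higher in binucleated libraries. Of 27 listed endothelial markers 15 passed the test, all higher (0.739% of all genes were called higher). All 27 had a log2 fold change above 0 (49.4% of all genes did), with a median of 2.87. The median was 3.08 without binucleated replicate 1, when 13 passed, all higher (0.971% of all genes). The 27 genes took 72.5, 92.9 and 45.9 CPM in mononucleated replicates 1, 2 and 3, and 265, 395 and 364 in the binucleated ones, and none was at 0 over a whole class. Emcn, a sialomucin of endothelium, had 17.5, 33.1 and 6.16 against 117, 174 and 214, with no overlap (10.3-fold, 3.37 ± 0.47 SE on the log2 scale, limma adjusted p = 0.00175). Cdh5, the cadherin of endothelial junctions, had 9.73, 15.7 and 3.08 against 119, 89.5 and 73.6 (11.04-fold, limma adjusted p = 0.0082). Fli1, an endothelial and blood transcription factor, had 12.6, 1.74 and 3.08 against 60.9, 102 and 86.01 (17.4-fold, limma adjusted p = 0.00161). For these 3 genes the lowest binucleated value was several times the highest mononucleated one. Cd93, a lectin-like receptor, was 7.67-fold higher (limma adjusted p = 0.00289), with 14.6, 27.9 and 27.7 against 143, 170 and 221. Fabp4, the fatty acid carrier of capillary endothelium, had 219.8, 114 and 115 against 1479.5, 457 and 722, highest in binucleated replicate 1 (5.52-fold, and 4.02-fold without it). Cav1, the coat protein of caveolae, had 417, 390 and 179.8 against 991, 1547 and 1327 (4.11-fold, limma adjusted p = 0.018). The call of Cav1 was lost without binucleated replicate 2 or mononucleated replicate 3 (limma adjusted p = 0.057 and 0.0742), and the calls of the other 5 named here held with each library left out. Fitted without binucleated replicate 1, the level was 12.2-fold higher for Emcn, 9.72-fold for Cdh5, 20.1-fold for Fli1, 8.47-fold for Cd93 and 4.64-fold for Cav1. Without mononucleated replicate 3 the log2 fold change was 2.74 for Emcn and 2.85 for Cdh5, and without mononucleated replicate 1 it was 4.87 for Fli1 (3.37, 3.46 and 4.12 with all libraries). Without binucleated replicate 2, 8 of the 27 markers passed, all higher (65 of all 12048 genes were called higher there). Pecam1, the common endothelial antigen CD31, did not pass: it had 61.3, 147 and 9.25 against 117, 380.3 and 373, and binucleated replicate 1 lay inside the wide mononucleated range (limma adjusted p = 0.148).

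Fibroblast markers showed a split within the binucleated class. Of 20 listed 6 passed, all higher (0.739% of all genes were called higher). The median log2 fold change was 2.85. Classes did not overlap in 16 that were higher and in 2 that were lower (6.91% and 7.1% of all genes). Without binucleated replicate 1, 9 passed, all higher (0.971% of all genes), and the median was 3.50. Classes were then apart in 17 higher and 2 lower markers (13.6% and 15.3% of all genes). The list took 1577 to 1640 CPM in mononucleated libraries and 1874, 2816 and 2800 in binucleated replicates 1, 2 and 3. Dcn, the matrix proteoglycan decorin, was alike in all 3 binucleated libraries, with 70.02, 46.1 and 176 against 1501, 1294 and 1460.4 (16.99-fold, 4.09 ± 0.52 SE on the log2 scale, limma adjusted p = 0.000853). Postn, periostin of activated and valve fibroblasts, had 356, 264 and 323 against 874, 3186 and 3522, and here replicate 1 was between the mononucleated values and its own class (6.86-fold, and 10.7-fold without it, limma adjusted p = 0.00289 and 4.67e-05). Col3a1, a fibrillar collagen chain, had the same arrangement, with 274, 625 and 825 against 2295, 7269.8 and 7703 (9.68-fold, and 14.3-fold without replicate 1). Col1a1, the main chain of type I collagen, had 146, 206 and 307 against 688, 3715 and 3432, missed the threshold with replicate 1 (limma adjusted p = 0.0732) and passed without it (limma adjusted p = 0.0156). Lum, the proteoglycan lumican, had 19.5, 0.871 and 19.5 against 274, 367 and 560.4, which was 47.7-fold higher (limma adjusted p = 0.0082). Mfap4, a microfibril protein, had 8.75, 9.58 and 41.1 against 243, 194 and 177, which was 13-fold higher (limma adjusted p = 0.0052). Leaving out 1 mononucleated replicate moved Lum from a log2 fold change of 5.58 to between 4.26 and 6.23, and Mfap4 from 3.70 to 4.40 without replicate 3. In the fit without binucleated replicate 1 the log2 fold change was 4.04 for Dcn, 5.82 for Lum and 3.57 for Mfap4. Both classes were apart in each of these genes, while their order within the binucleated class differed from gene to gene.

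Among 33 basement membrane and matrix genes 4 were higher (0.739% of all genes), and the median was 0.26. The count was 1 without mononucleated replicate 1, mononucleated replicate 3 or binucleated replicate 2 (74, 83 and 65 of all 12048 genes). Leaving out binucleated replicate 3 gave 3 higher and 1 lower (118 and 164 of all 12048 genes). Leaving out binucleated replicate 1 gave 6 higher (0.971% of all genes) and a median of 0.43. Col5a1, the type V collagen chain that starts collagen fibrils, had 69.05, 105 and 124 against 536, 795 and 967 (7.66-fold, and 9.03-fold without binucleated replicate 1, limma adjusted p = 0.00272 and 0.00269). Bgn, biglycan, had 13.6, 31.3 and 13.4 against 174, 384 and 352 (15.6-fold, limma adjusted p = 0.0239). Mmp2, a gelatinase of stromal cells, had 22.4, 63.5 and 31.9 against 197, 437 and 612 (10.4-fold, limma adjusted p = 0.0391). All 3 were lowest in binucleated replicate 1 among the binucleated libraries and still above every mononucleated value. With that library left out Bgn was 20.02-fold and Mmp2 14.3-fold higher (limma adjusted p = 0.0226 and 0.0251). The calls of Bgn, Mmp2 and Col3a1 were each lost without mononucleated replicate 1 (limma adjusted p = 0.0947, 0.154 and 0.122) or binucleated replicate 2 (0.0676, 0.08 and 0.0698). They were also lost for Bgn and Mmp2 without mononucleated replicate 3 (0.0852 and 0.116), for Mmp2 without binucleated replicate 3 (0.0689) and for Col3a1 without mononucleated replicate 2 (0.0533).

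Leukocyte markers were higher in binucleated libraries and scarce in the mononucleated ones. The list names 27 genes, of which 8 were in the deposited values. The gene filter is not given, so a marker may be listed only through the class in which it is high. Counts of higher markers are then not independent of the filter. Of the 8 listed 6 passed, all higher (0.739% of all genes were called higher). Mrc1 was the lowest, with a log2 fold change of -0.03. The 8 genes took 4.27, 4.05 and 4.01 CPM in the mononucleated libraries and 15.6, 40.8 and 51.2 in binucleated replicates 1, 2 and 3. Laptm5, C1qb, C1qc and F13a1 had 0 counts over all mononucleated libraries. Laptm5, a lysosomal membrane gene of white blood cells, showed normalised counts of 31.9, 27.7 and 46.1 in binucleated libraries (at least 37.6-fold higher, against a floor of 3 counts over the mononucleated class; limma adjusted p = 0.000445). The macrophage complement gene C1qc had 24.6, 52.8 and 24.8 (at least 37.2-fold higher, limma adjusted p = 0.00125), and C1qb had 14.5, 34 and 31.9 (at least 30.05-fold higher, limma adjusted p = 0.00276). These 3 genes were present in every binucleated library at low counts. F13a1, a macrophage transglutaminase, was uneven, with 2.90, 270.2 and 97.5, and its call was lost without binucleated replicate 2 (limma adjusted p = 0.0166 and 0.0636). Its fitted log2 fold change was 6.58, 5.30 without that library and 8.41 without binucleated replicate 1. Lyz2, lysozyme of myeloid cells, was present in both classes, with 71.97, 35.7 and 52.4 against 226, 202 and 653 (6.01-fold, limma adjusted p = 0.0052). The median log2 fold change of the list was 4.83, and 4.41 with the 4 genes at 0 set to their bounds. In the fit without binucleated replicate 1, 7 of the 8 passed, all higher (0.971% of all genes), and the fitted median was 5.52. Log2 fold changes there were 6.25 for Laptm5, 6.26 for C1qc, 6.13 for C1qb and 2.81 for Lyz2.

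Of 14 pericyte and smooth muscle markers 1 passed, higher (0.739% of all genes were called higher). The count was 1 without binucleated replicate 1 and 2 without mononucleated replicate 2. The median was 0.31, or 0.21 without binucleated replicate 1. Pdgfrb, the receptor that defines mural cells and is also made by fibroblasts, had 0 counts in the mononucleated class and normalised counts of 24.6, 194 and 131 in the binucleated one (at least 137-fold higher, limma adjusted p = 0.000652). Its fitted log2 fold change went from 7.50 to 8.39 without binucleated replicate 1. The list as a whole took 1886 to 2001 CPM in mononucleated and 1824 to 2024 in binucleated libraries, which overlapped. Limma called 0 of 11 endocardial and lymphatic, 0 of 10 erythroid and platelet, 0 of 9 epicardial, and 0 of 6 Schwann cell and neuronal markers. Of these lists 5, 0, 4 and 2 genes had an unadjusted p under 0.05 with a higher level (5.88% of all genes). With a lower level 1 Schwann cell and neuronal marker did (8.05% of all genes). Voom weights called 1, 0, 1 and 0, both higher (1.63% of all genes). The medians were 0.68, 0.58, 0.88 and 0.23, and without binucleated replicate 1 they were 1.15, 0.45, 1.08 and -0.0031. In that fit 2 endocardial and lymphatic markers were higher (0.971% of all genes), named after their values were seen. They were Cdh11, a mesenchymal cadherin (4.64-fold, limma adjusted p = 0.166 with the library and 0.00856 without), and Nfatc1, a transcription factor of the endocardium (2.22-fold, limma adjusted p = 0.35 and 0.0151). The other lists had 0 calls there, and 2 epicardial markers were higher without mononucleated replicate 3. The epicardial list took 71.8 to 96.3 CPM in mononucleated and 95.8 to 146 in binucleated libraries. Its surface marker Upk3b had 0, 0 and 34.9 against 189.8, 91.3 and 179, and Msln, mesothelin, had 0, 0 and 72.9 against 116, 299 and 237. In both genes mononucleated replicates 1 and 2 were at 0 and replicate 3 was not (limma adjusted p = 0.108 and 0.196). Wt1, a transcription factor of the epicardium, overlapped between the classes with 39.9, 63.5 and 18.49 against 146, 104 and 56.8 (limma adjusted p = 0.447). Hbb-bs, an adult globin of red cells, had 429, 625 and 306 against 1523, 829 and 954 (limma adjusted p = 0.63).

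The 8 lists of other cell types name 167 genes, of which 105 were listed, with the same limit from the unknown gene filter. Over all 8 lists, 28 of the 105 markers passed, all higher (0.739% of all genes were called higher). The count was 32 without binucleated replicate 1, all higher (0.971% of all genes). The summed level of the 105 markers was 4221 to 4291 CPM in mononucleated libraries and 4759, 5898 and 5925 in binucleated replicates 1, 2 and 3. In bulk libraries more cells of a type and more RNA per cell cannot be told apart. These markers and the G2/M genes were both higher in the same 3 libraries, and how far the one bears on the other was not tested. Within the binucleated class, replicate 1 had the lowest summed level of endothelial, fibroblast and leukocyte markers. It also had the lowest G2/M sum, 6728 CPM against 7066 and 7188. Within the mononucleated class the order differed, and replicate 3 had the highest G2/M sum, 4458 CPM, and the lowest endothelial sum, 45.9 CPM.

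**Figure D4:**
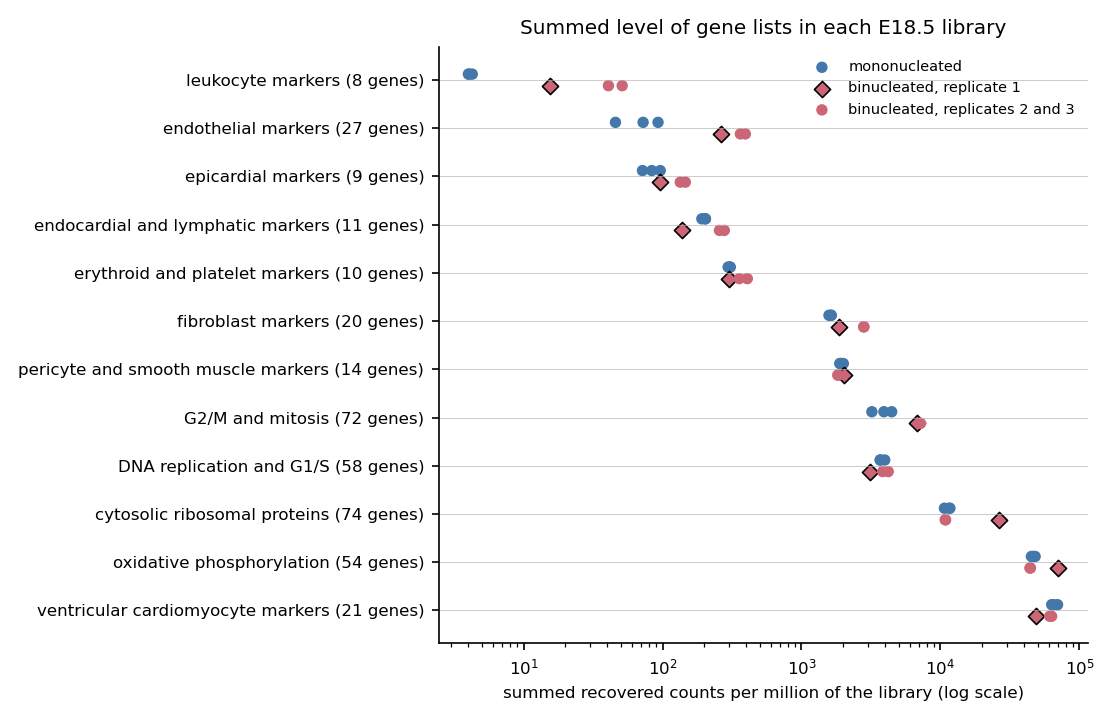
Summed CPM (x axis, log scale) for 12 gene lists in each E18.5 library. Leukocyte, endothelial, fibroblast and G2/M lists have every binucleated library to the right of the mononucleated ones, the replication, pericyte and smooth muscle lists overlap, and ribosomal protein and oxidative phosphorylation genes set binucleated replicate 1 apart.

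Ventricular genes had small differences between the classes, and with binucleated replicate 1 left out nearly all of them were below 0. Of 21 ventricular cardiomyocyte markers limma called 0, voom weights called 0, and the median was -0.12. An unadjusted p under 0.05 with a lower level was reached by 6 (8.05% of all genes). With all libraries 11 were below 0 and classes did not overlap in 4 that were lower (7.1% of all genes) and 1 that was higher (6.91%). In the fit without binucleated replicate 1 the median was -0.14, 20 were below 0, and classes did not overlap in 10 that were lower (15.3% of all genes) and 1 that was higher (13.6%), again with 0 called. Leaving out binucleated replicate 3 gave 1 call, lower, in a fit that called 164 of all 12048 genes lower. Tnnt2, cardiac troponin T, had 101079, 91999 and 96955 against 124302, 89813 and 91044 (0.06 ± 0.14 SE on the log2 scale, limma adjusted p = 0.843). Myl2, whose promoter drives the Cre in these mice, had 31902, 30020 and 31119 against 60366, 28192 and 27966 (limma adjusted p = 0.589). Tnni3, cardiac troponin I, had 39160, 36175 and 39539 against 66831, 34276 and 35465 (limma adjusted p = 0.627). All 3 were highest in binucleated replicate 1, and their log2 differences were below 0 without it (-0.10, -0.14 and -0.13). Actc1, cardiac actin, went the same way (0.12 with replicate 1 and -0.08 without). The myosin heavy chain genes were low in that library instead, and whether transcript length played a part was not tested. Myh6, the alpha chain, had 195434, 181712 and 254534 against 51227, 170031 and 205532 (limma adjusted p = 0.344), and Myh7, the beta chain of the fetal ventricle, had 262968, 276030 and 307956 against 69519, 266506 and 238044 (limma adjusted p = 0.394). Without binucleated replicate 1 their log2 differences were -0.16 and -0.16. Ttn, the giant spring protein titin, had 49685, 53679 and 44931 against 56022, 64183 and 65313, above the mononucleated range in every binucleated library (limma adjusted p = 0.422).

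Of 43 sarcomere, Z-disc and costamere genes 1 passed, lower (0.0664% of all genes were called lower). In 33 the log2 fold change was below 0. Classes did not overlap in 11, all lower in binucleated libraries (7.1% of all genes showed that pattern). Leaving out binucleated replicate 1 gave 0 calls, 38 below 0 and 20 without overlap, all lower (15.3% of all genes). Leaving out binucleated replicate 3 gave 2 calls, both lower, in a fit that called 164 of all 12048 genes lower. The 1 gene was Itga7, the laminin-binding integrin of the costamere, with 754, 729 and 687 against 216, 363 and 547. The binucleated values were spread widely below a tight mononucleated group (2.06-fold lower, -1.04 ± 0.23 SE on the log2 scale, limma adjusted p = 0.0485). The call was lost without any 1 of the 6 libraries except binucleated replicate 3, with limma adjusted p between 0.0579 and 0.15. Ankrd23, a stress-responsive titin partner, had 1441, 1335 and 1364 against 859, 907 and 1001.1, lower in all 3 and just outside the threshold (limma adjusted p = 0.0529, and 0.0767 without binucleated replicate 1).

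By limma, 0 of 36 excitation, calcium and ion channel genes and 0 of 34 genes of fatty acid uptake and oxidation passed. Voom weights called 0 of either list. At an unadjusted p under 0.05, 4 and 1 were higher (5.88% of all genes) and 5 and 9 were lower (8.05% of all genes). The medians were -0.24 and -0.06, and classes did not overlap in 8 fatty acid genes, all lower (7.1% of all genes). In the fit without binucleated replicate 1 the medians were -0.11 and -0.12, 30 of the 34 fatty acid genes were below 0, and classes did not overlap in 17 of them, all lower (15.3% of all genes). That fit called 0 fatty acid genes and 1 excitation gene, the sodium channel subunit gene Scn4b, higher and named after its values were seen (limma adjusted p = 0.25 with the library and 0.00607 without). Without binucleated replicate 2 there was 1 higher excitation gene (65 of all 12048 genes were called higher). Leaving out binucleated replicate 3 gave 2 lower excitation genes and 1 fatty acid gene in each direction (118 higher and 164 lower of all 12048 genes). Leaving out mononucleated replicate 2 gave 1 lower fatty acid gene. Plin5, which tethers lipid droplets to mitochondria, had 512, 336 and 464 against 256, 178 and 343, with a slight overlap (limma adjusted p = 0.083). The 54 oxidative phosphorylation genes had a median of 0.25 with binucleated replicate 1 and -0.15 without it, and the 74 ribosomal protein genes 0.40 and -0.11. Limma called 0 of either list (0 had an unadjusted p under 0.05, and voom weights called 0). In the fit without binucleated replicate 1, all 54 oxidative phosphorylation genes and 72 of the 74 ribosomal protein genes were below 0. Classes then did not overlap in 38 and 39 of them, all lower (15.3% of all genes), again with 0 called. Rps12, a protein of the small ribosomal subunit, had 666, 743 and 640.1 in mononucleated libraries and 2885, 717 and 684 in binucleated replicates 1, 2 and 3.

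Of the 8 genes lower in binucleated cells, only Itga7 stood on a list. Slc47a1, a cation exporter, was the most abundant, with 1755, 1751 and 1645 against 877, 1206 and 1154. The classes did not overlap (1.61-fold lower, -0.68 ± 0.13 SE on the log2 scale, limma adjusted p = 0.0185), and the difference was 1.45-fold without binucleated replicate 1. Lnx1, a ubiquitin ligase of the Numb pathway, had 53.5, 89.7 and 23.6 against 5.80, 3.58 and 14.2 (6.74-fold lower, limma adjusted p = 0.00463). Lpin3, a lipin phosphatidate phosphatase, had 27.2, 12.2 and 52.4 against 0, 0 and 4.43, which is at 0 in 2 binucleated libraries (22.7-fold lower on the offset log scale, limma adjusted p = 0.00419). Lnx1 and Lpin3 kept the call with each library left out. Ip6k3, an inositol phosphate kinase of muscle, had 39.9, 62.7 and 79.1 against 14.5, 7.16 and 32.8 (limma adjusted p = 0.0301). Myh14, a nonmuscle myosin, had 34.04, 24.4 and 21.6 against 5.80, 0 and 7.98 (limma adjusted p = 0.0484). Akr1c13, a ketosteroid reductase, and Slc9a3, a sodium and proton exchanger, were scarce, with 11.7, 13.1 and 8.22 against 0, 0.895 and 3.55 and 9.73, 12.2 and 7.19 against 0, 3.58 and 0.887 (limma adjusted p = 0.0286 and 0.0335). Lpin3, Akr1c13 and Slc9a3 are named because the lower group is small, after their values were seen. Slc47a1 lost its call without mononucleated replicate 1 or 2 (limma adjusted p = 0.0668 and 0.0599), and Myh14 without any mononucleated replicate (0.0979 to 0.155). The calls of Ip6k3, Akr1c13 and Slc9a3 were each lost in 4 of the 6 fits with 1 library left out. All 3 were lost without binucleated replicate 1 (limma adjusted p = 0.0568, 0.066 and 0.081) and without mononucleated replicate 2 (0.0962, 0.089 and 0.113). That of Ip6k3 was also lost without binucleated replicate 2 or mononucleated replicate 3 (0.0735 and 0.131), that of Akr1c13 without mononucleated replicate 1 or binucleated replicate 2 (0.0928 and 0.0652), and that of Slc9a3 without mononucleated replicate 1 or 3 (0.104 and 0.0552). In the fit without binucleated replicate 1 the log2 fold change was -2.67 for Lnx1, -4.16 for Lpin3, -1.89 for Ip6k3, -3.78 for Myh14, -2.28 for Akr1c13 and -2.11 for Slc9a3. Among the scarce genes the fitted value also moved with other libraries: without binucleated replicate 2 it was -1.85 for Myh14, -3.81 for Lpin3 and -3.35 for Slc9a3, and without binucleated replicate 3 it was -3.96 for Myh14, -5.54 for Lpin3 and -3.51 for Akr1c13 (with all libraries -3.20, -4.51, -2.67 and -2.84).

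Several further genes were higher in the binucleated class. Which cell type their RNA came from was not tested. Arl6ip1, a protein that shapes the tubular endoplasmic reticulum, had 2082, 2524 and 3085 against 8108, 5342 and 4820.2 (2.34-fold, 1.23 ± 0.19 SE on the log2 scale, limma adjusted p = 0.00371). S100a16, a calcium-binding protein, had 81.7, 81.8 and 52.4 against 249, 199.5 and 193 (3.003-fold, limma adjusted p = 0.000692). Tagln2, an actin-binding transgelin, had 214, 349 and 325 against 1098, 895 and 789 (3.17-fold, limma adjusted p = 0.00371). In all 3 the classes were clearly separate, and the calls held with each library left out. H2-D1, a class I antigen presenting molecule with close copies in the genome, had 275, 259 and 322 against 551, 655 and 576 (2.08-fold, limma adjusted p = 0.00363). Ucp2, a mitochondrial carrier, was 2.58-fold higher, with 115, 144 and 219 against 384, 288 and 565 (limma adjusted p = 0.0284). Id3, an inhibitor of basic helix-loop-helix factors, was 3.24-fold higher, with 101, 262 and 213 against 614, 526 and 597 (limma adjusted p = 0.0284). The call of Ucp2 was lost without mononucleated replicate 1 or 2 or binucleated replicate 3 (limma adjusted p = 0.143, 0.0909 and 0.0566), and that of Id3 without mononucleated replicate 1 or binucleated replicate 1 or 2 (0.124, 0.0555 and 0.0521). Dlk1, an imprinted membrane protein of fetal growth, had 8.75, 36.6 and 36.99 against 342, 414 and 261 (14.3-fold, limma adjusted p = 0.0296). Its call was lost without mononucleated replicate 1 or 3 or binucleated replicate 1 or 2 (limma adjusted p = 0.0512 to 0.144). Without mononucleated replicate 1 its log2 fold change was 3.16, against 3.83 with all libraries. In the fit without binucleated replicate 1 it was 3.81, and the others had 1.00 for Arl6ip1, 1.47 for S100a16, 1.54 for Tagln2, 1.11 for H2-D1, 1.39 for Ucp2 and 1.65 for Id3.

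Amigo2, a cell surface adhesion protein, had the smallest p of all genes, with 0.973, 0 and 0 against 43.5, 55.5 and 75.4. It was practically missing from the mononucleated libraries, with 1 count in sum, and the ratio of counts was 190 (95% exact interval 33.7 to 7545, counting error only; limma adjusted p = 5.79e-05, and 0.000139 without binucleated replicate 1). Fbp2, the muscle fructose bisphosphatase, was scarce in both classes, with 0.973, 1.74 and 0 against 2.90, 17 and 24.8 and a ratio of counts of 17.5 (95% exact interval 5.66 to 87.9; limma adjusted p = 0.00709). Its fitted log2 fold change was 3.31, 4.16 without binucleated replicate 1 and 2.71 without mononucleated replicate 3.

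Leaving out binucleated replicate 1 removed 22 of the 97 calls and added 62, of which 46 were higher and 16 lower in binucleated cells. Among the added genes, Lcn2, the siderophore-binding lipocalin, and Mstn, the growth inhibitor myostatin, had 0 counts in all mononucleated libraries and in binucleated replicate 1. Lcn2 had normalised counts of 0, 39.4 and 32.8 in binucleated replicates 1, 2 and 3, and Mstn had 0, 17 and 13.3 (limma adjusted p = 0.109 and 0.0921 with replicate 1, and 0.000264 and 0.000264 without). Some of the added lower genes had replicate 1 apart from its class in the other direction. Mylk4, a myosin light chain kinase, had 70.02, 33.1 and 12.3 against 44.9, 2.68 and 2.66 (limma adjusted p = 0.00192 without replicate 1). Lrg1, a secreted glycoprotein, had 149.8, 158 and 122 against 178, 52.8 and 70.9 (limma adjusted p = 0.00288), and Ccdc17, a coiled-coil protein, had 78.8, 85.3 and 59.6 against 123, 11.6 and 19.5 (limma adjusted p = 0.00846). In these 3 genes replicate 1 was within or above the mononucleated range and replicates 2 and 3 were well below it. Grb14, an adaptor of the insulin receptor, had no such split: it had 6072, 5682 and 5709 against 4618, 4317 and 4779, lower in all 3 binucleated libraries (limma adjusted p = 0.0863 with replicate 1 and 0.0293 without), and is named after its values were seen.

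The class difference was also compared between ages. At P7, 281 genes had a class difference that differed from that at E18.5 (limma interaction, 2.33% of genes), 253 of them with the P7 difference below that at E18.5 (2.1%) and 28 above (0.232%). In the adult 19 genes did (0.158%), all with the adult difference below. Without binucleated replicate 1 the counts were 568 and 34; the adult count was 33, 36 and 34 without mononucleated replicate 1, mononucleated replicate 3 or binucleated replicate 3. Of the 89 genes higher in binucleated cells at E18.5, 64 had a P7 difference below it and 14 an adult difference below it. The interaction uses the same E18.5 values that called these genes, so these counts are not independent of the calls. Of the 97 genes 5 passed at P7 as well, each in the opposite direction: Tagln2, Lyz2, Igfbp7, Mxra8 and Serpinb1a, named after their values were seen. Igfbp7, a secreted growth factor binder of vessels, had a log2 difference of 3.43 at E18.5 and -2.42 at P7 (limma adjusted p = 0.000692 and 0.00429), and Lyz2 had 2.59 and -2.83 (limma adjusted p = 0.0052 and 0.00116). Tagln2 had 1.66 and -1.17, Mxra8, a matrix remodelling protein, had 2.85 and -1.92, and Serpinb1a, a protease inhibitor, had 2.34 and -1.66 (limma adjusted p at P7 = 0.0233, 0.0214 and 0.044). In the adult 1 of the 97 passed, Cenpf, and it was lower in binucleated cells there (log2 difference -0.87, limma adjusted p = 0.0333).

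The cell cycle lists had other class differences at P7. The G2/M list had a median log2 difference of 0.81 at E18.5, -0.92 at P7 and -0.18 in the adult. Of its 72 genes 15 had a P7 difference below that at E18.5 (2.1% of all genes did). For 3 the adult difference was below it (0.158% of all genes). The G1/S list had -0.11, -1.76 and -0.13, and 27 of its 58 genes had a lower difference at P7 (2.1% of all genes). Cenpf was at 1.42 at E18.5 and -0.57 at P7 (limma interaction adjusted p = 0.000271). Ccne2, a G1/S cyclin gene, was at -0.17 and -2.91 (limma interaction adjusted p = 0.000691). Of the 27 endothelial markers 12 had a lower difference at P7 (2.1% of all genes). The median of the 27 was 2.87 at E18.5, -0.37 at P7 and 0.22 in the adult. Of 20 fibroblast markers 8 had a lower difference at P7 (2.1% of all genes), with medians of 2.85, -0.37 and -0.32 at the 3 ages. The hearts, sorts and libraries of an age cannot be told apart from the age itself.

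**Figure D5:**
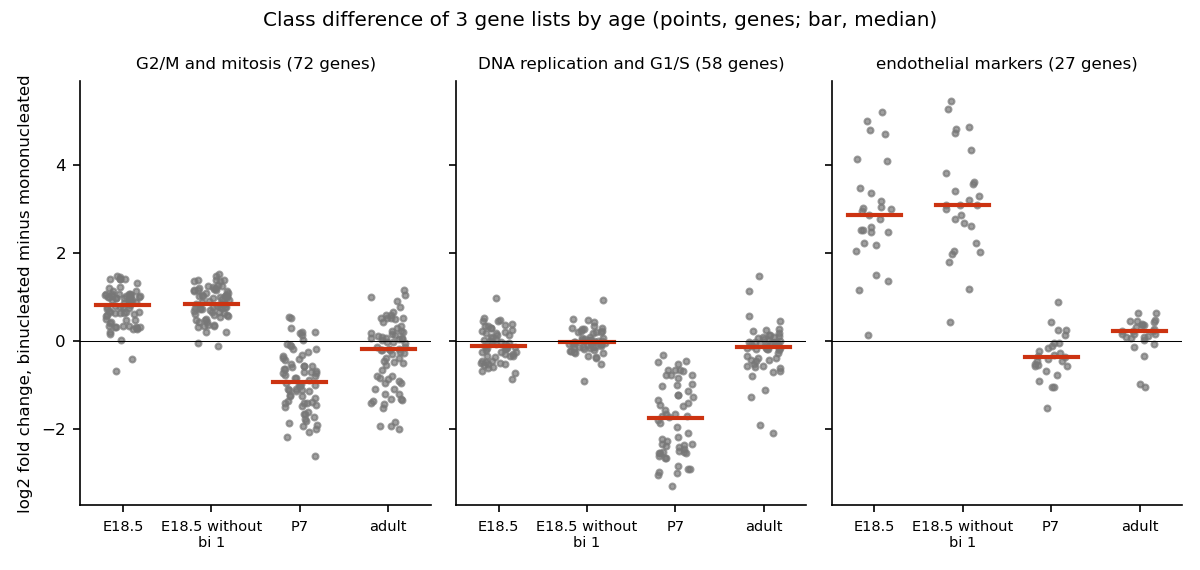
Log2 fold change, binucleated minus mononucleated (y axis), of each gene of 3 lists at E18.5 with and without binucleated replicate 1 (bi 1), at P7 and in the adult (x axis), with the median as a bar. The G2/M genes are mostly above 0 at E18.5 and mostly below at P7 (medians 0.81 and -0.92), the replication genes are near 0 at E18.5 and below it at P7 (-0.11 and -1.76), and endothelial markers have medians of 2.87 and, without replicate 1, 3.08 at E18.5, and of -0.37 at P7 and 0.22 in the adult.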

How the data were processed

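The 18 libraries came from sorted cardiomyocytes. Per the labels' protocols, RNA was isolated by phenol-chloroform and RNeasy micro columns, and libraries used a TruSeq stranded mRNA kit with SMARTer amplification. The submitters' processing notes name STAR, limma and build mm9, per the labels; for versions, read counter and gene filter the sources used here give nothing. Each library has 1 table of log2 values as deposited by the authors; every value fitted log2 of a whole count plus 0.5 times 1 factor per library, and the counts recovered lay within 1.0e-08 of whole numbers (100% within 0.001). E18.5 totals were 14833334 to 22690952 counts. Intervals and floors cover counting error only, since amplified reads carry no molecular identifiers. No replicate was a copy of another (chi-square over degrees of freedom 18.2 to 256), so each was counted.

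Symbols of 11927 identifiers came from GENCODE M21, whose build differs from mm9, so no coordinates of the files are given. The design foresaw log2 values or counts; as the unit is log2, limma 3.58.1 (R 4.3.3) was fitted to all 18 libraries with 6 group means, an intensity trend and 12 residual degrees of freedom, two-sided, with Benjamini-Hochberg adjustment over 12048 genes and a threshold of 0.05. Normalised counts are recovered counts times the library factor over the geometric mean factor of the 6 E18.5 libraries. Transcript lengths were found for 11927 genes (99.0%). The fit was tested on simulated data.

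Genes were named by a rule: up to 15 per direction with the largest change among called, non-overlapping genes in the upper 75% by mean, up to 4 per list, up to 8 per direction without binucleated replicate 1, and a fixed panel; exceptions are marked. The 32 gene lists and the comparison were chosen with earlier results of these data known. Alternatives were libraries left out, the replicate block, normalization, prior count, voom and array weights, a filter on low values and robust moderation. Genes with near-identical copies (ribosomal proteins, histones, globins, H2-D1) and overlapping genes are uncertain, because the sources used here do not say how shared reads or strand were counted. Promoter windows are from RefSeq (GRCm38.p6).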

Additional observations from a re-analysis of the deposited data

Results flagged for a closer look

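The values below were singled out because the class difference of a named gene (binucleated minus mononucleated, log2) at P7 or in the adult differed from that at E18.5 by the interaction term of the limma fit, with an adjusted p under 0.05. Each value is the later difference minus the difference at E18.5, over 3 libraries per group. A negative value means that the binucleated class stood relatively lower at the later age. Many of these genes were named for their E18.5 difference, and the interaction subtracts that same difference. The signs below are thus not independent of the naming.

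Among mitotic genes the P7 difference minus the E18.5 difference was -1.99 for Cenpf, -2.02 for Sgo2a, -2.08 for Tpx2 and -1.78 for Top2a, and the adult value was -2.28 for Cenpf and -2.26 for Top2a. Replication genes and the histone variant gene H2afz gave -2.22 for Mcm5, -1.66 for Pcna, -2.74 for Ccne2, -1.97 for Dbf4 and -1.37 for H2afz at P7.

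Fibroblast and matrix genes gave -4.97 for Dcn, -3.83 for Col3a1, -2.50 for Postn, -5.56 for Lum, -5.06 for Mfap4, -4.21 for Col5a1, -5.38 for Bgn, -6.07 for Mmp2 and -4.77 for Mxra8 at P7, and -4.56 for Dcn and -3.32 for Postn in the adult. Endothelial genes gave -3.89 for Emcn, -3.97 for Cd93, -4.70 for Fli1 and -2.58 for Fabp4 at P7. Leukocyte and mural genes gave -6.95 for C1qc, -5.41 for Lyz2 and -7.89 for Pdgfrb at P7, and -6.79 for Laptm5, -6.56 for C1qc and -6.81 for Pdgfrb in the adult. C1qc, Laptm5 and Pdgfrb were at 0 in the E18.5 mononucleated class, so their fitted values depend on the offset of 0.5 in the log.

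Other genes higher at E18.5 gave -7.32 for Amigo2, -5.85 for Igfbp7, -4 for Serpinb1a, -2.84 for Tagln2, -2.66 for Id3, -1.92 for S100a16, -1.63 for Ucp2, -1.58 for Arl6ip1 and -1.35 for H2-D1 at P7. Their adult values were -6.80 for Amigo2, -3.42 for Igfbp7, -2.52 for Ucp2 and -1.66 for S100a16. Genes with lower values in the E18.5 binucleated class gave positive values at P7, namely 5.17 for Lpin3, 3.36 for Slc9a3, 2.88 for Lnx1, 1.27 for Plin5, 0.95 for Ankrd23 and 0.82 for Slc47a1.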

How the results depend on the processing

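The count of 97 genes (89 higher, 8 lower) ran from 79 to 282 when each E18.5 library was left out in turn (65 to 118 higher, 5 to 164 lower; 282 and 164 without binucleated replicate 3). It was 0 from the E18.5 libraries alone (0 and 0) and, in an alternative chosen after seeing the data, 25 from those without binucleated replicate 1 (25 and 0). It was 204 with voom weights (196 and 8), 338 with array weights (262 and 76) and 10 among the upper 75% of genes by mean (10 and 0). Quantile normalization gave 84 higher and 29 lower, and prior count 2, median-of-ratios scaling and robust moderation kept the count within 1.5 times. With the replicate number as a replicate block, 104 genes passed in all libraries (90 and 14) and 1 in the E18.5 libraries alone (1 and 0); same-numbered libraries deviated at correlations of 0.088, 0.054 and 0.158 and others at -0.095 to 0.0018. Each library thus correlated best with its own number, a hint from the data and not from the design, but 2 of 3 values missed the limit of 0.1, so the numbers were not used as pairs. The P7 interaction count of 281 ran from 188 to 568 with libraries left out, and was 1199 with array weights and 117 in the upper 75%. The adult count of 19 ran from 15 to 36, and was 36 with a prior count of 2, 99 with array weights and 9 in the upper 75%.

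Of the 43 called genes named here, 27 kept the call with each library left out and all 43 kept their direction under every alternative run. With libraries left out, log2 fold changes of uncalled genes ran from -0.62 to 0.028 for Mcm5, -0.31 to 0.0021 for Ccne2, -0.0074 to 0.37 for Pcna, -0.14 to 0.41 for Myl2, -0.095 to 0.14 for Tnnt2, -0.13 to 0.35 for Tnni3 and -0.078 to 0.22 for Actc1. They turned direction without binucleated replicate 1, also in the E18.5 libraries alone (Mcm5 0.028, Ccne2 0.0021, Pcna -0.0074, Myl2 -0.14, Tnnt2 -0.095, Tnni3 -0.13 and Actc1 -0.078). With array weights, which gave that library 0.049, Pcna was at -0.12, Myl2 was at -0.13, Tnnt2 was at -0.082, Tnni3 was at -0.10 and Actc1 was at -0.060. Binucleated replicate 1 had the fewest counts, and genes with few counts limit what can be detected: 217 to 570 genes had under 10 counts in an E18.5 library.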

Other observations

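Of 22 interferon and antigen presentation genes 1 passed, H2-D1 (0.739% of all genes were called higher). Above 0 were 15 (49.4% of all genes) and below it 7. The median log2 fold change was 0.48, and classes did not overlap in 6, all higher (6.91% of all genes). Without binucleated replicate 1 the median was 0.33, 13 were above 0 and 9 below, and 1 passed; the count was 2 without mononucleated replicate 1 and 3 without binucleated replicate 3. B2m, the light chain of class I molecules, had 731, 704 and 744 normalised counts in mononucleated replicates 1, 2 and 3 against 2329, 1021 and 936 in the binucleated ones, highest in replicate 1 (limma adjusted p = 0.18). Ifitm3, an interferon-induced membrane protein, had 58.4, 53.1 and 27.7 against 707, 281 and 151, with no overlap (limma adjusted p = 0.0839). Of 18 replication-dependent and variant histone genes limma called 0 and voom weights called 0. At an unadjusted p under 0.05, 7 were higher (5.88% of all genes) and 0 lower. Their median was 0.59, and 0.24 without binucleated replicate 1. In the fit without that library 1 was lower (0.166% of all genes), Hist1h2ac (limma adjusted p = 0.456 with that library and 0.00656 without). H2afz, the variant H2A.Z, had 3463, 3867 and 3871 against 9748, 4877 and 4704, with replicate 1 far above the rest (limma adjusted p = 0.185).

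Immediate early and dissociation stress genes had a median of 0.09 over 33 genes (0.44 without binucleated replicate 1). Limma and voom weights called 0 of them, and 2 had an unadjusted p under 0.05 (13.9% of all genes). The median of 22 Hippo and Yap target genes was -0.15, and that of 33 growth factor receptor and ligand genes was -0.10. Limma called 0 of either list, and voom weights called 0 and 1 (1.69% of all genes). Of the 2 lists 4 and 5 genes had an unadjusted p under 0.05 (13.9% of all genes). Their medians without binucleated replicate 1 were 0.01 and 0.03, and that fit called 1 Hippo and Yap target, Axl, a receptor tyrosine kinase, higher (limma adjusted p = 0.329 with the library and 0.0484 without). Leaving out binucleated replicate 3 also gave 1 higher gene of that list. Hist1h2ac and Axl are named after their values were seen.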
